A study of Mus musculus with 24 samples.

Results

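The cAMP response genes of TM3 cells were followed over a day after sham treatment or exposure to a nanosecond pulsed electric field (nsPEF). They were Crem, Creb1, Atf1, Sik1, Pde4a, Pde4b, Pde4d, Prkaca and Prkar2b, 9 of the 23787 genes that could be named on the array. Their 24 probes were found by the RefSeq transcript given for each spot, and 20 of these probes, at least 1 for every gene, were tested. The other 4 probes, 1 for Pde4b and 3 for Pde4d, were too dim in every group.

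TM3 is an immortal line from mouse Leydig cells, the testosterone-making cells of the testis. Cells grown in serum were detached, washed cold, put in suspension in binding buffer and either sham-exposed or given 80 pulses of 60 ns at 14 kV/cm. All groups shared this harvest, and RNA was taken at 0 h, 4 h and 24 h. The paper describes the time after exposure as standard culture. It states that the cells of 4 h and 24 h were collected quickly, and that those of 0 h followed a prolonged preparation. Culture and final harvest thus changed together with time. The 6 groups, S0, E0, S4, E4, S24 and E24 (S for sham, E for nsPEF), held 4 biological replicates each, on 24 arrays in all.

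Cyclic AMP is made by adenylyl cyclases when a receptor activates the stimulatory G protein, and in Leydig cells the receptor for luteinizing hormone is the classic trigger. It frees the catalytic subunits of protein kinase A (PKA) from the regulatory ones, and these phosphorylate CREB1, ATF1 and CREM, which bind the cAMP response element in their target genes. Phosphodiesterases of the PDE4 family break cAMP down. Sik1, several Pde4 forms and the short repressor form of Crem are themselves induced by cAMP and end the response.

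Values are log2 processed intensities relative to the 75th percentile of each array, so 0 is the brightness of the 75th percentile itself. A probe can be compared between groups but not with another probe. The probes called well above background made up 58.8% to 59.9% of all probes in the sham group averages and 53.9% to 55.3% in those of nsPEF. Every sham array (lowest 57.5%) lay above every nsPEF array (highest 57.2%). Each slide held the 8 arrays of 1 time, so that time and slide cannot be told apart. Sham arrays lay in the first row of every slide and nsPEF arrays in the other row, so treatment and place cannot be told apart. Of the Leydig cell markers, Star, Cyp17a1, Nr5a1 and Gata4 were well above background on all 24 arrays, but Lhcgr, the luteinizing hormone receptor, and Cyp11a1, Hsd3b6 and Hsd17b3 were so on 0. Of the 9 Leydig cell markers with a probe 4 were thus seen on all 24 arrays, and so were 3 of 6 Sertoli cell markers (Wt1, Clu and Sox9), 2 of 6 of germ cells, 2 of 4 of macrophages, 1 of 3 of endothelial cells and 4 of 5 of mesenchymal cells (not Thy1). Amh, Fshr and Dhh of Sertoli cells were seen on 2, 1 and 0 arrays, and the part of these markers in the results was not tested.

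Many of these probes differed between the time points in both treatments. In sham cells 8 of the 20 probes were higher and 8 lower at 4 h than at 0 h (limma, Benjamini-Hochberg adjusted p below 0.05). Over all 37684 tested probes 29.4% were higher and 29.7% lower, so that such changes were common on the array. The median size of the change was 0.66 on the log2 scale for the 20 probes and 0.47 for all probes. At 24 h against 0 h, 2 probes were higher and 5 lower (16.9% and 19.7% of all probes). With scaling on the 6 spike-in RNA probes the median difference of all probes at 24 h against 0 h was 0.69 in sham and 0.53 in nsPEF-exposed cells. In the main fit these medians were -0.001 and 0.06. At 24 h against 4 h they were 0.65 and 0.38 with that scaling and 0.01 and -0.03 in the main fit. Small falls by 24 h thus turned to rises on the spike-in scale. From 4 h to 24 h, 6 rose and 8 fell (27.8% and 29.9%).

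The nsPEF-exposed cells gave similar counts. At 4 h against 0 h, 7 probes were higher and 8 lower (33.5% and 27.8% of all probes). At 24 h against 0 h, 1 was higher and 5 lower (23.9% and 18.3%), and from 4 h to 24 h 8 rose and 7 fell (27.5% and 29%). The 2 courses rest on separate arrays, and they were compared through the interaction of time and treatment. It called 0 of the 20 probes with limma and 0 with a plain analysis of variance of time and treatment (1 at an unadjusted p below 0.05, 0.377% of all probes called). A missed threshold does not show that the courses were alike.

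**Figure D1:**
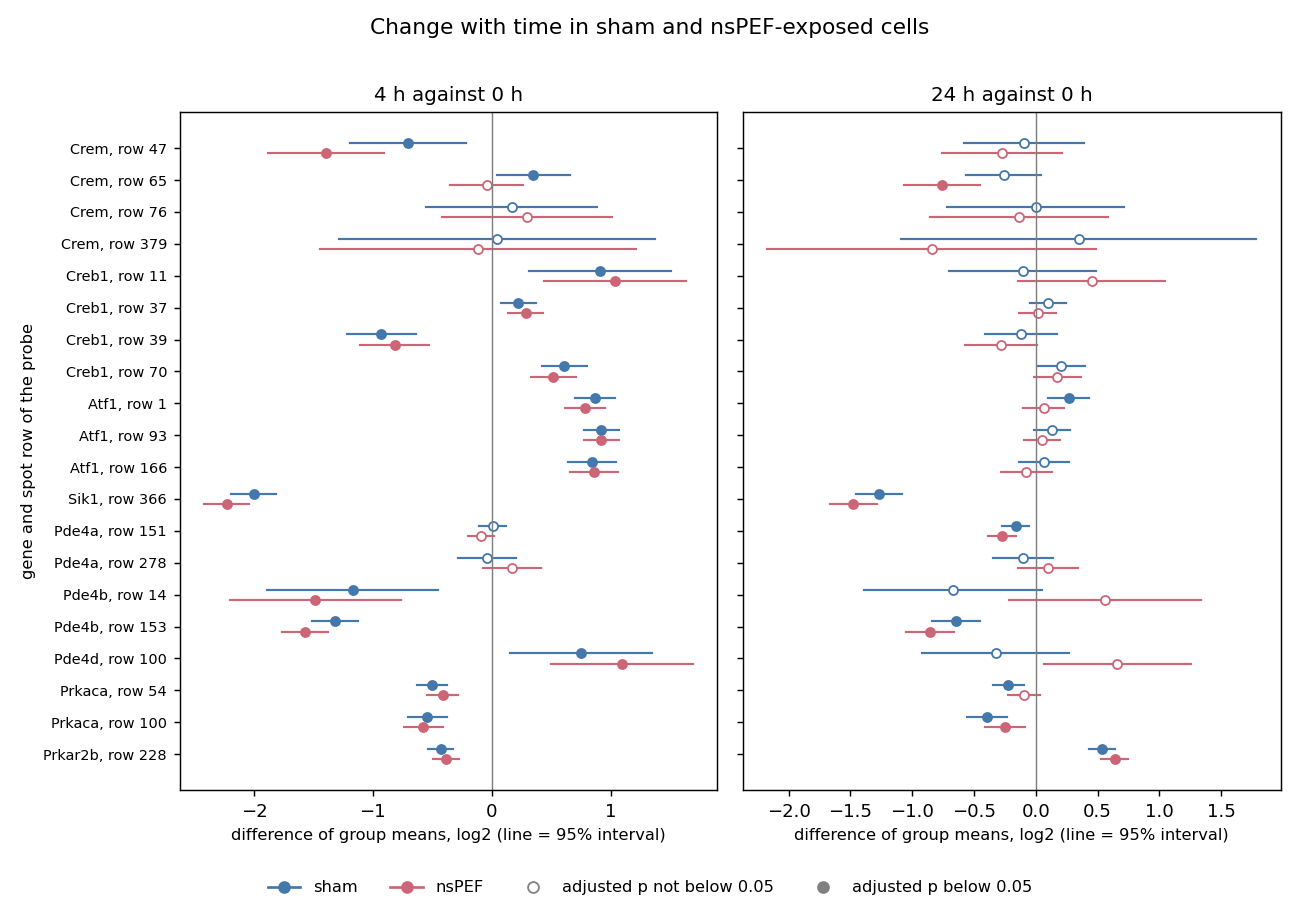
Differences of group means (log2, x axis) at 4 h and 24 h against 0 h for the 20 tested probes (y axis), with 95% intervals, for sham and nsPEF. Sik1 and the Pde4b probe on row 153 lie furthest to the left at 4 h in both treatments, while the 3 Atf1 probes lie near 0.9.

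Sik1, which encodes a kinase that is induced by cAMP and holds the CREB coactivators out of the nucleus, fell the most of the 9 genes from 0 h to 4 h. Its probe, on spot row 366 of the array, read 0.82, 0.88, 0.67 and 0.96 on the S0 arrays. It read -1.06, -1.12, -1.23 and -1.27 on the S4 arrays, and -0.44, -0.36, -0.36 and -0.58 on the S24 arrays. The 3 groups did not overlap: the signal was highest in freshly handled cells, lowest at 4 h, and partly restored after a day. From 0 h to 4 h Sik1 fell 4.00-fold in sham cells (SE of the log2 difference 0.09, n = 4 per group, limma adjusted p = 1.2e-13). At 24 h Sik1 was still 2.41-fold lower than at 0 h, although it had gained 0.73 ± 0.09 since 4 h (adjusted p = 6.49e-07). Spike-in scaling kept both calls, with differences of -0.58 and 1.37.

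In nsPEF-exposed cells Sik1 read 0.76, 0.68, 1.02 and 1.00 at 0 h, then -1.18, -1.43, -1.48 and -1.36 at 4 h and -0.46, -0.61, -0.61 and -0.75 at 24 h. The order of the time points was the same, and the fall to 4 h was 4.69-fold (-2.23 ± 0.09, limma adjusted p = 2.01e-14). The sham and nsPEF arrays overlapped at each time. In time order, nsPEF differed from sham by 0.03, -0.19 and -0.17, with 95% intervals of -0.15 to 0.22, -0.38 to -0.01 and -0.36 to 0.02. None passed the adjusted threshold (limma adjusted p = 0.961, 0.221 and 0.269).

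The other salt-inducible kinases went the other way. Sik2, which also phosphorylates the CREB coactivators, rose by 0.84 ± 0.07 in sham cells from 0 h to 4 h (limma adjusted p = 2.46e-09) and Sik3 by 0.30 ± 0.06 (adjusted p = 0.000391). Both were still higher at 24 h, by 0.83 and 0.22.

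**Figure D2:**
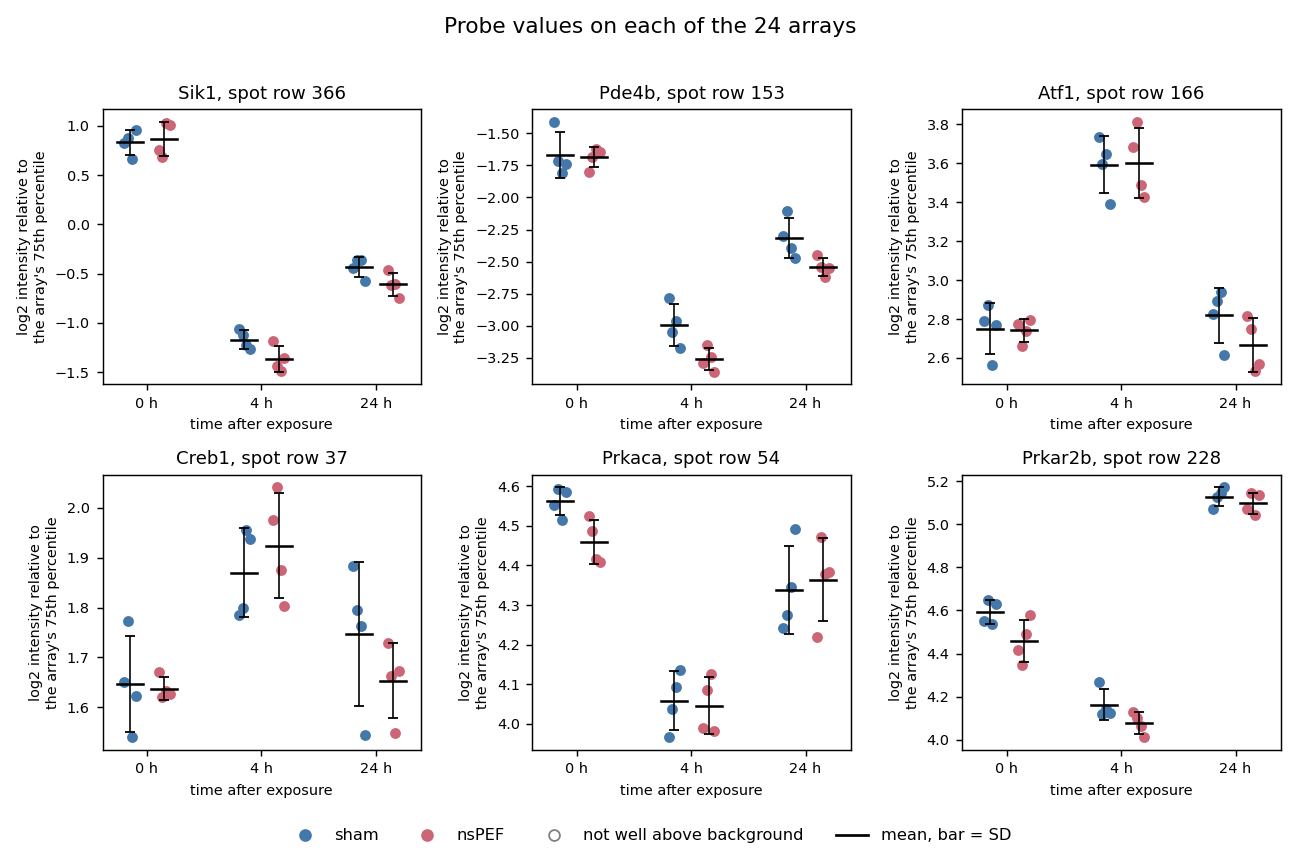
Log2 intensity over the array's 75th percentile (y axis) by time (x axis) for 6 probes, with a point per array, the group mean and its SD. Sik1 and Pde4b are highest at 0 h and lowest at 4 h, Atf1 peaks at 4 h, and Prkar2b is lowest at 4 h and highest at 24 h, in sham and nsPEF alike.

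Pde4b, a cAMP-degrading phosphodiesterase whose short forms are induced by cAMP, followed a course like that of Sik1. Its probe on row 153 read -1.41, -1.72, -1.81 and -1.74 in S0 and -2.78, -3.05, -2.96 and -3.17 in S4. In S24 it read -2.30, -2.11, -2.40 and -2.47. No S4 array reached the range of the others. The fall from 0 h to 4 h was 2.50-fold in sham cells (-1.32 ± 0.09, limma adjusted p = 1.22e-10) and 2.97-fold in nsPEF-exposed cells (-1.57 ± 0.09, adjusted p = 7.57e-12). At 24 h sham cells were lower than at 0 h by a log2 difference of -0.65 ± 0.09, which was 0.04 when arrays were scaled on the spike-in RNA. For nsPEF-exposed cells this difference was -0.85, and -0.39 with that scaling, and it was called in all 40 alternative settings.

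In nsPEF-exposed cells this probe read -1.80, -1.68, -1.62 and -1.64 on the E0 arrays. E4 arrays gave -3.29, -3.15, -3.24 and -3.36, and E24 arrays gave -2.45, -2.54, -2.62 and -2.55. Averaged over time it was at a difference of -0.17 ± 0.05 from sham, which was not called (limma adjusted p = 0.0555). The call depended on the setting. It was made with quantile normalization (-0.33, adjusted p = 0.00255), which also called this probe lower at 4 h (-0.52) and at 24 h (-0.39), with the replicate number as a block (adjusted p = 0.0471), with a floor, with no filter, with marked spots kept and in the deposited table.

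The other tested Pde4b probe, on row 14, also fell to 4 h in sham cells, from -3.33 ± 0.07 to -4.50 ± 0.26 (SD, n = 4, limma adjusted p = 0.00653). In E4 it was well above background on 0 of 4 arrays, which made nsPEF-exposed cells at least 1.48-fold lower at 4 h than at 0 h. This call was lost with a floor at the background (-0.57, adjusted p = 0.118) and with another background correction (-0.26, adjusted p = 0.146). In E24 it read -2.85, -4.19 and -1.63, with 1 array left out as a marked spot and 2 well above background, so its nsPEF value at 24 h had an SD of 1.28. Nearby probes of like signal (within 5 spot rows and 1 log2 unit) were brighter on nsPEF arrays by a median of 0.36 over the time points. The 2 probes agreed on the fall to 4 h and not on the level of nsPEF-exposed cells after a day. The third Pde4b probe was well above background on 0 arrays.

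Pde4a, the next member of the family, hardly moved. Its probe on row 151 read 1.56 ± 0.03 in S0 and 1.57 ± 0.04 in S4 (SD, n = 4), a difference of 0.01 with a 95% interval of -0.11 to 0.12. It was lower at 24 h than at 0 h by -0.16 in sham and -0.27 in nsPEF-exposed cells (limma adjusted p = 0.0224 and 0.000431), but these were 0.53 and 0.19 under spike-in scaling. Its other probe, on row 278, was called in none of the time comparisons, with differences from -0.10 to 0.17 on the log2 scale.

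Pde4d, whose product is another cAMP phosphodiesterase, was near the detection limit. Of its 4 probes only that on row 100 was tested, and it was well above background on 14 of 24 arrays. It read -4.77, -4.62, -4.31 and -4.83 in S0, -3.75, -4.09, -3.88 and -3.81 in S4 and -4.98, -5.40, -4.81 and -4.64 in S24. The S4 arrays were above all others of the sham course. The rise to 4 h was 1.69-fold in sham cells (0.75 ± 0.29, limma adjusted p = 0.029) and 2.14-fold in nsPEF-exposed cells (adjusted p = 0.00245). Neither rise was called with another background correction, where the differences were -0.09 and 0.20, and the sham rise also lost its call without S0 replicate 1 or 4 or without S4 replicate 1, 3 or 4. S24 had 0 arrays well above background, which made the fall since 4 h at least 1.92-fold, but it was not called with spike-in scaling (-0.44, adjusted p = 0.190) or the other background correction (-0.19, adjusted p = 0.248). In E24 it read -3.59, -3.99, -3.57 and -4.71, with 2 of 4 arrays well above background. Its mean was 0.99 above that of S24, and no bound can be given since both groups held undetected spots. That difference was not called (adjusted p = 0.0507), but it was with the replicate number as a block (adjusted p = 0.0457), with a floor, with no filter and with a filter for all 4 arrays of a group. Nearby probes of like signal were brighter on nsPEF arrays at 24 h by a median of 0.26.

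Promoters of Pde4b and Pde4a from RefSeq (GRCm38.p6, 300 bases around a start site) are shown because these cAMP phosphodiesterases are listed with several start sites, 4 for Pde4b and 3 for Pde4a, and the motif of the cAMP response was found at 1 start of each. Capitals mark the core motif TGACG, which the CREB family binds, read on either strand.
Pde4b, chr4:102421305-102421604, plus strand: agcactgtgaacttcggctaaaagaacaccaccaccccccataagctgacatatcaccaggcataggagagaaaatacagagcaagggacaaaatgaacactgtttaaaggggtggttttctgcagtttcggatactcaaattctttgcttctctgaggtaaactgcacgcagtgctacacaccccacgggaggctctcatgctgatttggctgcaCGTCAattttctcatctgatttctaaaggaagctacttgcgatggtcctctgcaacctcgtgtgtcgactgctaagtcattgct
Pde4a, chr9:21183851-21184150, plus strand: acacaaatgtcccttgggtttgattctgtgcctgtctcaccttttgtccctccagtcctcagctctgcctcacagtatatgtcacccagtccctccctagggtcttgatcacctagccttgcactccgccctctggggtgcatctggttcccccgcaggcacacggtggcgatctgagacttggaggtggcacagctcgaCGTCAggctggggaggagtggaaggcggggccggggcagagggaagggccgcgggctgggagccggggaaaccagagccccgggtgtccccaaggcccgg
In both the motif reads CGTCA, the core on the opposite strand, and begins 34 bases before the start in Pde4b and 50 before it in Pde4a. Pde4b fell at 4 h and Pde4a was not called then, and which start the probes report was not tested.

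CREB1 and ATF1, the activators that PKA phosphorylates, were measured by 4 and 3 probes, and the 4 of Creb1 are listed with the same transcript. All 3 Atf1 probes were higher at 4 h than at 0 h and lower again at 24 h. The probe on row 166 read 2.79, 2.87, 2.56 and 2.77 in S0, 3.74, 3.59, 3.65 and 3.39 in S4 and 2.83, 2.89, 2.94 and 2.62 in S24. The S4 arrays stood clear of the S0 and S24 arrays, which overlapped. The sham rise was 1.80-fold for this probe (0.84 ± 0.10, limma adjusted p = 2.24e-07), 1.89-fold for the probe on row 93 and 1.83-fold for that on row 1. With nsPEF the same probe read 2.78, 2.66, 2.74 and 2.79 in E0, 3.68, 3.81, 3.49 and 3.43 in E4 and 2.82, 2.75, 2.53 and 2.57 in E24, again highest at 4 h. The nsPEF rises were 1.81, 1.90 and 1.73-fold in the same order. From 4 h to 24 h the sham values fell by 0.77, 0.79 and 0.60. Under spike-in scaling these sham differences were -0.14, -0.15 and 0.035 and none was called, while at 24 h against 0 h all 3 probes were called higher, by 0.76, 0.82 and 0.96. The fall after 4 h in sham cells thus depended on the scaling. In nsPEF-exposed cells the differences from 4 h to 24 h were -0.94, -0.87 and -0.72 in the same order. They were called in all 40 alternative settings, at -0.53, -0.47 and -0.32 under spike-in scaling.

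The promoter of Atf1 is shown since all its probes moved together, and it holds the core motif TGACG, in capitals, 90 bases before the start.
Atf1, chr15:100227609-100227908, plus strand: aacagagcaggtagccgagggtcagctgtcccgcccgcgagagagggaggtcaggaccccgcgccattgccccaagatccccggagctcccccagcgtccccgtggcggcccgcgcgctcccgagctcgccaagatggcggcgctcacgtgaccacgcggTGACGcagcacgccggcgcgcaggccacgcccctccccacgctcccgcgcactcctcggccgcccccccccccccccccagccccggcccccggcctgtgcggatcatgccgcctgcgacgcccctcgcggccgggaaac
Promoters from RefSeq were read for 7 of the 9 genes, 14 in all. Crem was left out of this search, and Sik1 had no promoter listed. The shares over all promoters were counted without leaving out any gene. Either strand held the core motif in 4 of the 14 (28.6%), against 20.8% of all 32851 promoters of the same length. That not shown, of Prkaca, held it 120 and 6 bases before the start, and both Prkaca probes were lower at 4 h. The whole element TGACGTCA, which contains the core on each strand, was found in 0 of the 14 and in 1.79% of all promoters. These are matches of letters, not measured binding.

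The Creb1 probes disagreed in direction. The probe on row 37 read 1.65, 1.77, 1.54 and 1.62 in S0 and 1.79, 1.80, 1.96 and 1.94 in S4, without overlap, and rose by 0.22 ± 0.07 (limma adjusted p = 0.0103). The probes on rows 70 and 11 rose by 0.61 and 0.91. Row 39 went the other way and read -2.41, -2.62, -2.53 and -2.47 in S0 and -3.26, -3.50, -3.57 and -3.41 in S4, a fall of 1.90-fold (-0.93 ± 0.14, adjusted p = 7.54e-06). It fell by 1.76-fold in nsPEF-exposed cells. All 4 were well above background on 24 arrays. Thus 3 of 4 probes of this gene were higher at 4 h and 1 was lower, in both treatments, and which transcripts each probe reads was not tested.

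Crem, whose products include activators and the inducible repressor ICER, was measured by 4 dim probes that did not share a course. That on row 65 read -2.78, -2.63, -2.95 and -2.87 in S0 and -2.14, -2.46, -2.52 and -2.70 in S4. These groups overlapped, and the difference of 0.35 ± 0.15 was close to the threshold (limma adjusted p = 0.0455) and was not called in 22 of 40 alternative settings. In nsPEF-exposed cells the 4 h value was near that at 0 h (-0.04, 95% interval -0.35 to 0.26). Between 4 h and 24 h sham cells fell by 0.61 and nsPEF-exposed cells fell by 0.72, but neither fall was called under spike-in scaling, where the differences were 0.028 and -0.31.

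Crem on row 47 had another course. It read -3.22, -3.35, -3.63 and -2.99 in S0, -3.80, -3.98, -3.84 and -4.38 in S4 and -3.34, -3.10, -3.35 and -3.78 in S24. The S4 arrays lay below the rest, with a fall of 1.63-fold from 0 h (limma adjusted p = 0.014). In E4 it was well above background on 0 of 4 arrays, at least 1.83-fold lower than in E0. The sham fall was not called without S4 replicate 4 (-0.57, adjusted p = 0.0541), nor the nsPEF fall with another background correction (-0.26, adjusted p = 0.0906). Crem on row 76 was called in no comparison, with sham means of -4.15, -3.98 and -4.15 at 0, 4 and 24 h.

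**Figure D3:**
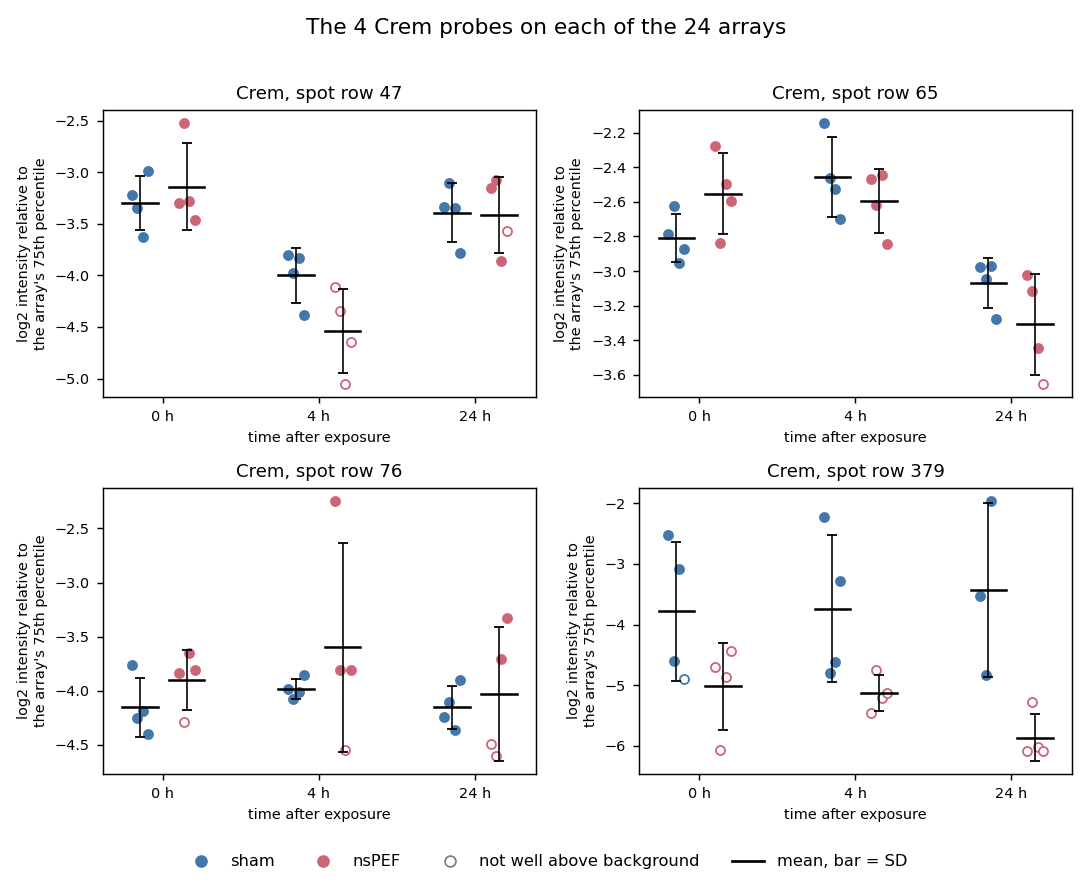
The 4 Crem probes by time (x axis) in log2 intensity over the array's 75th percentile (y axis), with a point per array, means and SD, and open points for spots not well above background. The probe on row 47 is lowest at 4 h, that on row 65 is lowest at 24 h, and on row 379 every nsPEF point is open.

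Prkaca, the main catalytic subunit of PKA, was lower at 4 h by both of its probes. The probe on row 54 read 4.55, 4.59, 4.52 and 4.59 in S0, 3.97, 4.04, 4.09 and 4.14 in S4 and 4.24, 4.28, 4.34 and 4.49 in S24. The 3 groups did not overlap. The fall was 1.42-fold in sham cells (-0.50 ± 0.06, limma adjusted p = 4.02e-07) and 1.33-fold in nsPEF-exposed cells, and on row 100 it was 1.45 and 1.49-fold. The E0 arrays read 4.53, 4.49, 4.42 and 4.41 on row 54, the E4 arrays 3.99, 4.09, 4.13 and 3.98 and the E24 arrays 4.22, 4.47, 4.38 and 4.38, so that E0 and E24 overlapped. At 24 h sham cells were below 0 h by -0.22 for row 54 and -0.40 for row 100, which became 0.47 and 0.29 under spike-in scaling.

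Prkar2b, a regulatory subunit that holds the catalytic subunit inactive, had another course. Its probe on row 228 read 4.55, 4.65, 4.54 and 4.63 in S0, 4.27, 4.12, 4.14 and 4.12 in S4 and 5.07, 5.13, 5.14 and 5.17 in S24. It was lowest at 4 h and highest at 24 h, with no overlap. Sham cells fell by 0.43 ± 0.05 on the log2 scale to 4 h (limma adjusted p = 3.79e-07) and were 1.45-fold above 0 h at 24 h (adjusted p = 9.32e-08), a log2 difference of 0.54 that was 1.23 under spike-in scaling. The nsPEF arrays gave 4.42, 4.35, 4.49 and 4.58 in E0, 4.13, 4.10, 4.06 and 4.01 in E4 and 5.07, 5.14, 5.04 and 5.13 in E24. They too did not overlap between times, and E24 was 1.56-fold above E0. Over the treatments the averaged difference was -0.08 ± 0.03 (adjusted p = 0.0801).

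Few of these probes differed between nsPEF and sham, at shares near those of all probes. None of the 20 was called between nsPEF and sham at 0 h or at 4 h with limma (2 and 6 at an unadjusted p below 0.05, and 0 with a plain analysis of variance), where 0.127% and 3.31% of all probes were called. At 24 h 1 was called (4.82% of all probes) and averaged over the time points 2 were (8.84%). These were the Crem probe on row 379 and the Atf1 probe on row 1. The median size of the averaged difference was 0.10 for the 20 probes and 0.09 for all probes.

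The Crem probe on row 379 read -2.53, -4.61, -3.09 and -4.90 in S0 and -4.70, -6.07, -4.87 and -4.44 in E0. It read -2.23, -4.80, -4.62 and -3.29 in S4 and -5.46, -4.74, -5.21 and -5.13 in E4. In S24 it read -3.52, -4.83 and -1.96, with 1 marked spot left out, and in E24 -6.08, -5.27, -6.02 and -6.08. It was well above background on 10 of 12 sham arrays and 0 of 12 nsPEF arrays, and only at 24 h did the groups not overlap. It passed the filter on dim probes through sham groups alone, so that its differences and p-values are set in part by that filter. The averaged difference was -1.69 ± 0.38 (limma adjusted p = 0.0128) and that at 24 h -2.43 ± 0.68 (adjusted p = 0.0479). Since E24 had no array above background, the latter is at least a 1.58-fold difference of the means. With a floor at the background the difference at 24 h was -0.66 and was not called (limma adjusted p = 0.501). The call at 24 h was kept in 12 of 40 alternative settings. The averaged call was lost with another background correction, with a floor at the background and without replicate 1 or replicate 4 of every group, where the differences were -0.16, -0.50, -1.37 and -1.56.

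The other 3 Crem probes had averaged differences of -0.13, -0.04 and 0.25, and none was called. Place on the array moved with the result: in the last 48 spot rows of 384, 11% of the dim probes were well above background on sham arrays and 0.345% on nsPEF arrays, by the median array. Within 5 rows of the probe and within 1 log2 unit of its mean signal lay 291 other tested probes. Their median averaged difference was -0.45, with 22 called lower and 0 higher. With values centred by spot row and signal the averaged difference of the Crem probe was still called and that at 24 h was not, at -2.18 (limma adjusted p = 0.0659). The part of place in this result was not tested further.

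The Atf1 probe on row 1 read -0.30, -0.45, -0.46 and -0.33 in S0 and -0.10, -0.05, -0.16 and -0.04 in E0. It read 0.23, 0.49, 0.47 and 0.74 in S4 and 0.61, 0.65, 0.86 and 0.69 in E4, and -0.06, -0.09, -0.12 and -0.21 in S24 against -0.03, -0.05, 0.08 and -0.08 in E24. The nsPEF arrays were above the sham arrays at 0 h and overlapped with them later. The averaged difference was 0.20 ± 0.05 (limma adjusted p = 0.013), while the Atf1 probes on rows 93 and 166 gave -0.05 and -0.05. Near it lay 99 other tested probes of like signal, with a median difference of 0.11, 10 called higher and 0 lower. After centring by spot row and signal it was 0.17 and no longer called (adjusted p = 0.0591). The call was also lost without replicate 2 or replicate 3 of every group, at 0.21 and 0.17. In the first 48 rows 13% of the dim probes were well above background on nsPEF arrays and 2.1% on sham arrays.

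**Figure D4:**
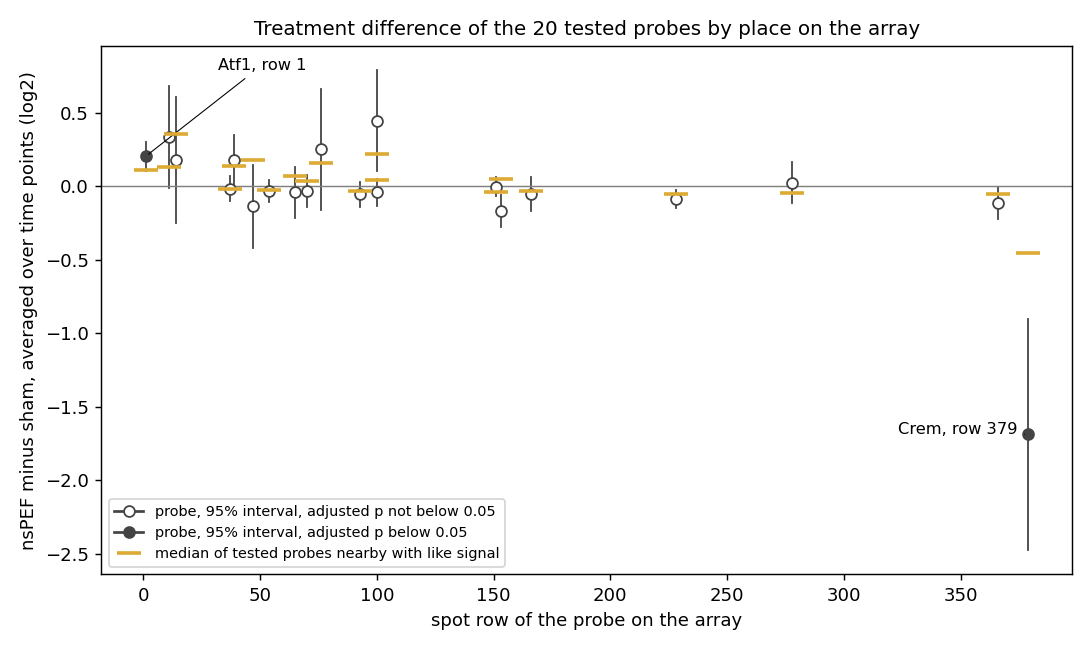
Difference of nsPEF from sham averaged over the time points (log2, y axis) against the spot row (x axis) for the 20 tested probes, with 95% intervals and, as short bars, the median of the probes nearby with like signal. The 2 called probes lie at the ends of the array, on rows 1 and 379, and the short bars run from above 0 on the left to -0.45 on the right.

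The rest of the pathway was read from a list of 76 other genes, of which 62 were tested, each by its brightest probe. In sham cells 27 of them were higher and 20 lower at 4 h than at 0 h (29.4% and 29.7% of all probes). At 24 h 12 were higher and 19 lower (16.9% and 19.7%). The shares are over tested probes of any brightness, the counts over the brightest probe of each gene. The median difference at 4 h was -0.08, against -0.01 over all probes. In nsPEF-exposed cells 25 were higher and 20 lower at 4 h (33.5% and 27.8% of all probes), and 13 and 23 at 24 h (23.9% and 18.3%).

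The widest changes were among the CREB target genes, of which 15 of 16 were tested. In sham cells 5 were higher and 9 lower at 4 h (29.4% and 29.7% of all probes), with a median difference of -1.53. At 24 h 1 was higher and 10 lower (16.9% and 19.7%). Fos, an immediate-early transcription factor, fell the most, from 6.78 ± 0.11 in S0 to -0.50 ± 0.10 in S4 (SD, n = 4, log2 difference -7.28 ± 0.10 SE, limma adjusted p = 3.52e-20). Fosb, its close relative, fell the most by 24 h, from 3.92 ± 0.05 to -2.72 ± 0.25. The others lower at 4 h were Dusp1, Egr1, Nr4a1, Nr4a2, Junb, Per1 and Gem, named here after their values were seen. Most of the 9 are immediate-early genes, which other pathways than cAMP also induce.

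Areg, the growth factor amphiregulin, went the other way and was well above background on 4 of 4 arrays in S4 and in E4 and on 0 in the other groups. Star, which carries cholesterol into the mitochondrion for steroid synthesis, was higher by 0.91 ± 0.14 at 4 h and lower by a difference of -0.63 ± 0.14 at 24 h (limma adjusted p = 6.51e-06 and 0.00114). The spike-in scaling moved the median of all probes by 0.69 at 24 h against 0 h in sham cells, more than the fall of Star. Star was also named after its values were seen.

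Among receptors and G proteins, cyclases and anchoring proteins, more genes were higher than lower at 4 h in sham cells. Over all probes 29.4% were higher and 29.7% lower in this comparison. Of 6 tested receptors and G proteins 4 were higher and 1 lower, with Ptger4, a prostaglandin E receptor, at 1.44 ± 0.10 and the inhibitory G protein Gnai2 at -0.62 ± 0.04. Another inhibitory G protein, Gnai3, named after its values were seen, was among the 4, so this count gives no direction for cAMP. Of 5 cyclases 3 were higher and 1 lower, led by Adcy1 at 1.48 ± 0.10 and with Adcy9 at -0.38 ± 0.10. Of 8 tested anchoring proteins, which tie PKA to its sites in the cell, 5 were higher and 1 lower. Akap12 rose the most, from 2.48 ± 0.03 in S0 to 4.75 ± 0.12 in S4, and was at 2.66 ± 0.08 in S24, while Akap11 fell by 1.06 ± 0.11. Rapgef3, a cAMP-activated exchange factor apart from PKA, was higher by 0.92 ± 0.05.

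Among the other PKA subunits and PKA inhibitors 2 were higher and 2 lower at 4 h (29.4% and 29.7% of all probes). The regulatory subunit Prkar2a rose by 1.61 ± 0.10 (limma adjusted p = 1.49e-11), whereas Prkar2b fell as described, and the inhibitor Pkig fell by 0.66 ± 0.06. Of 10 other phosphodiesterases 1 was higher, Pde7a at 0.64 ± 0.10, and 4 were lower, most of all Pde1a at -1.88 ± 0.18. Of 9 coactivators and relatives of CREB 4 were higher and 2 lower, with Atf7 at 0.89 ± 0.13 and Crebl2 at -2.66 ± 0.16. Crebl2 had returned by 2.25 ± 0.16 at 24 h.

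**Figure D5:**
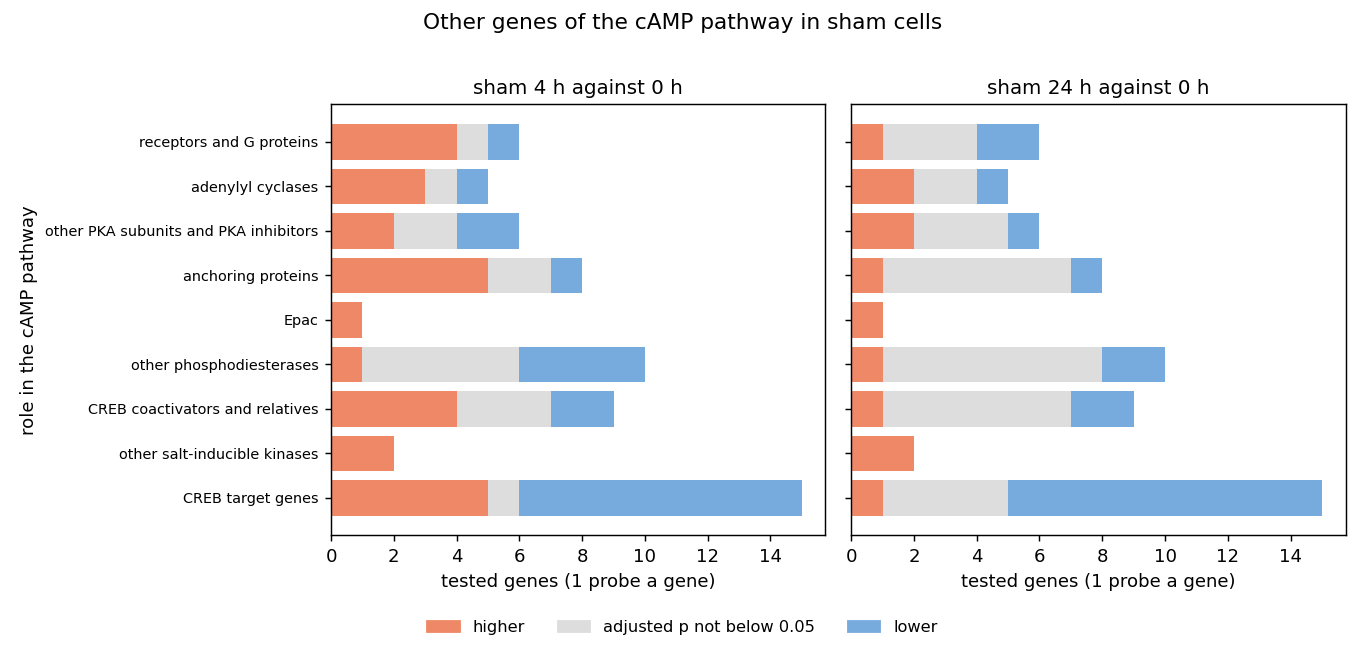
Number of tested genes of the cAMP pathway list (x axis) that were higher, lower or not called in sham cells, by role (y axis), at 4 h and 24 h against 0 h. Of the 15 CREB target genes 9 were lower at 4 h and 10 at 24 h, while 5 of 8 anchoring proteins were higher at 4 h and 1 at 24 h. Over all probes 29.7% and 19.7% were lower, and 29.4% and 16.9% higher.

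Over the 24 arrays, which share the time course, the genes most like each member were found by Pearson's r, given as a description. For Sik1 these were Btg2 (r = 0.989), Cdkn3 and Rasl11b, and for Pde4b Tob1 (r = 0.985), Wrn and Nusap1. Btg2 and Tob1 encode related antiproliferative proteins. For Atf1 they were Tgfbr2 (r = 0.990), Ppp1r2 and Ptbp3, for Prkaca Dnlz (r = 0.971), Pgap2 and 1700037C18Rik, and for Prkar2b Mad2l1 (r = 0.977), Fam111a and Hoxc6. For Creb1 (row 37) they were Nrg1 (r = 0.902), Bdp1 and Elf1, for Crem (row 65) Saraf (r = 0.914), Rfk and Ppfibp1, and for Pde4a Fbxo7 (r = 0.853), Ckb and Scube2. Pde4d came with Cxcr2 (r = 0.867), Olfr456 and Ifitm10.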

How the data were processed

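RNA from 24 samples of TM3 cells was labelled with Cy3 by the authors and hybridized to one-colour mouse arrays, which were read with Agilent Feature Extraction 12.0. The deposited scanner files hold, per spot, intensity values: the processed signal is background-subtracted and not scaled between arrays. The authors also deposited a table of log2 values, shifted to the 75th percentile and set to a median baseline, used as an alternative.

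Spots that the software marked as outliers and the 3671 control spots were left out, and 56605 probes remained, of which 34566 were named through RefSeq transcripts. The log2 processed signal minus each array's 75th percentile was used. A probe was tested if well above background on at least 2 of 4 arrays of any group (37684 probes). Means of the 6 groups were fitted in R 4.3.3 by limma 3.58.1, with Benjamini-Hochberg adjustment over all tested probes and a threshold of 0.05. The study's methods used two-way analysis of variance, here an alternative. The fit was run on simulated data with independent normal noise and few changed probes. These lacked the differences by spot row and the many changed probes of the real arrays. Precision is limited by the number of arrays. A bound ("at least") compares the brighter group with the lowest signal well above background on each array of the dimmer group. It concerns group means and is not a confidence limit.

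All probes of the 9 genes were named. Of the pathway list, the called genes that rose and fell most in each role were named, and for each gene the 3 most correlated others. The members and lists were chosen with earlier results of these data known. Replicate numbers were not used as pairs in the main fit. Of 60 same-numbered pairs of arrays 0 had a correlation of deviations over 0.1, which cannot exclude that they were pairs. Alternatives changed scaling, background correction, floor, filter, marked spots, centring, test, block, source table and left out arrays.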

Additional observations from a re-analysis of the deposited data

Results flagged for a closer look

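In 6 of 118 groups of 4 arrays, 1 array stood apart from the other 3 by Dixon's test at its 95% limit, which chance does in about 1 group in 20. The Crem probe on row 379 read -5.27 on E24 replicate 2, against -6.08 to -6.02 on the others, all of them not well above background. The Creb1 probe on row 11 read -1.42 on S0 replicate 3 (others -1.19 to -1.15), that on row 39 read -1.76 on E0 replicate 2 (others -2.54 to -2.46) and that on row 70 read -1.23 on S4 replicate 4 (others -1.19 to -1.18). The Prkaca probe on row 100 read -1.66 on S4 replicate 3 (others -1.71 to -1.71), and Prkar2b read 4.27 on S4 replicate 1 (others 4.12 to 4.14).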

How the results depend on the processing

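Of the 76 calls made for the 20 probes, 38 were kept with their direction in all 40 alternatives, among them all calls of Sik1 and Prkar2b, and 31 were lost in at least 1. The limits are these: time cannot be told apart from slide, nor treatment from place on the slide, and dim probes (Crem, Pde4d and Pde4b row 14) have bounds only in some groups. Spike-in scaling raised the number of probes called at 24 h against 0 h from 7 to 14 in sham and from 6 to 15 in nsPEF-exposed cells, and gave 1, 2, 0 and 4 probes called between treatments at 0 h, 4 h, 24 h and averaged. It turned these differences. At 24 h against 0 h in sham cells they became 0.47 and 0.29 for Prkaca rows 54 and 100, 0.60 and 0.43 for Crem rows 47 and 65, 0.53 and 0.59 for Pde4a rows 151 and 278, 0.57 for Creb1 row 39 and 0.043 for Pde4b row 153. At 24 h against 4 h in sham cells they became 0.23 and 0.52 for Creb1 rows 70 and 37, 0.57 and 0.47 for Pde4a rows 278 and 151, 0.035 for Atf1 row 1 and 0.028 for Crem row 65. At 24 h against 0 h in nsPEF-exposed cells they became 0.37 and 0.22 for Prkaca rows 54 and 100, 0.19 for Pde4a row 151 and 0.39 for Atf1 row 166. At 24 h against 4 h in nsPEF-exposed cells they became 0.057 and 0.13 for Creb1 rows 70 and 37 and 0.33 and 0.22 for Pde4a rows 278 and 151. Normexp background correction turned the sham rise of Pde4d at 4 h to -0.094. The cause of these turns was not tested.

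Between treatments, the probes called at 24 h and averaged (1 and 2 as reported) were 2 and 5 with a floor at the background, 2 and 4 with no filter, 2 and 4 with marked spots kept, 2 and 4 in the deposited series table, 0 and 1 with normexp and 0 and 1 after centring by spot row and signal. Quantile normalization called 2 at 4 h and 2 at 24 h, a filter for all 4 arrays of a group called 2 at 24 h, and the plain analysis of variance called 0 at 24 h. Leaving out arrays gave 13 to 16 probes called at 4 h against 0 h in sham cells, 4 to 8 at 24 h against 0 h (4 without replicate 2 of every group) and 12 to 14 at 24 h against 4 h. In nsPEF-exposed cells it gave 14 to 16, 5 to 8 and 15 to 16. Between treatments it gave 0 to 0 at 0 h, 0 to 1 at 4 h (1 without S4 replicate 4), 0 to 2 at 24 h, 1 to 4 averaged and 0 to 1 for the interaction (1 without E24 replicate 2). With the replicate number as a block, 3 probes were called averaged over time (2 without it), the Crem probe on row 379 lost its call at 24 h (-2.30, limma adjusted p = 0.0567), the Pde4d probe gained one there (adjusted p = 0.0457), and Pde4b row 153 was the probe gained in the average (adjusted p = 0.0471). The other counts of probes were as reported. Same-numbered arrays had correlations of deviations from -0.07 to 0.10, which cannot exclude that they were pairs. For the pathway list the genes called ranged over the alternatives from 42 to 49 at 4 h against 0 h in sham cells and from 26 to 47 at 24 h, and between treatments from 0 to 10 at 4 h, 1 to 10 at 24 h and 0 to 10 averaged.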

Other observations

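Between nsPEF and sham, few of the 62 other pathway genes passed the threshold. With limma 0 were called at 0 h, 3 at 4 h and 4 at 24 h. Over all probes 0.127%, 3.31% and 4.82% were called. At 4 h Rapgef3 was higher by 0.24 ± 0.05 and Fosb by 0.38 ± 0.09, and the catalytic PKA subunit Prkacb differed by -0.18 ± 0.05 (limma adjusted p = 0.0213, 0.0325 and 0.0352). Without S4 replicate 1, S4 replicate 3 or E4 replicate 4 none of the 62 genes was called at 4 h. The probes of all 3 lie on spot rows 355, 371 and 377, in the band where dim probes were seen less often after nsPEF. These 3 probes were not dim, being well above background on all 24 arrays. Of the 4775 tested probes in that band 31 were called higher and 72 lower at 4 h. The part of place was not tested. At 24 h Dusp1, a phosphatase of MAP kinases, differed by -0.44 ± 0.07, Fos by -0.49 ± 0.11 and the adenosine receptor Adora2b by -0.37 ± 0.10 (adjusted p = 0.00313, 0.0215 and 0.043). Without S24 replicate 2, S24 replicate 3 or E24 replicate 4, 1 of the 62 genes was called at 24 h. The cyclase Adcy2 was called at 24 h too, but was well above background on only 2 of 24 arrays, both of E24. The interaction of time and treatment was called for Dusp1 (adjusted p = 0.0142) and not for Fosb, Fos, Rapgef3, Prkacb or Adora2b (0.332, 0.132, 0.0977, 0.331 and 0.132). It was called for 0.377% of all probes. For Fos, 1 marked spot of S24 was left out. Of these, Rapgef3, Fos, Dusp1 and Adora2b were named here after their values were seen.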
